A study of Mus musculus with 16 samples.

Results

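The levels of 14545 genes were compared between the distal sciatic nerve of WldS mice and that of C57BL/6 mice 7 days after a crush. The comparison takes the 4 arrays of that day, of 16 in the series, which are 2 of C57BL/6 nerve and 2 of C57BL/6 OlaHsd-Wlds nerve. Each of 18193 genes was read from its brightest probe set by mean signal, and those brighter than a dim filter (log2 signal 5.37) were tested. C57BL/6 mice are labelled wild type, and C57BL/6 OlaHsd-Wlds mice, called WldS here, carry the WldS mutation. Both were 8 to 12 weeks old, and both had the left sciatic nerve crushed at mid-thigh. The piece analysed was 4 mm long and ran from 1 to 5 mm distal to the crush. The study used 56 mice of each strain and took nerves at day 0 (uninjured), 3, 7 and 14, which gives 8 groups of 2 Affymetrix whole-genome mouse arrays. RNA came from pooled distal stumps, and each array received 10 µg of it. How many mice went into a pool and whether the 2 pools of a group were dissected separately is not given, so the p-values below measure only the spread between pools. The carriers of the mutation come from the OlaHsd substrain, so the mutation and the substrain cannot be told apart.

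When an axon is cut off from its cell body it breaks down by a programme of its own, called Wallerian degeneration. Schwann cells that lose their axon shut down myelin and lipid synthesis, divide and take on a repair state, and macrophages enter the nerve and clear myelin debris. WldS mice carry a fusion gene whose product includes the NAD-synthesizing enzyme NMNAT1, and their cut axons survive far longer than those of other mice. The comparison therefore sets a nerve whose axons degenerate on time against one where degeneration is delayed.

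The 2 pools of C57BL/6 at day 7 had a median standard deviation of 0.061 on the log2 scale and those of WldS one of 0.118. A gap of 1 log2 unit or more between the pools was found for 12 genes in C57BL/6 (0.0825% of those tested) and 66 in WldS (0.454%). The 3'/5' index, the log2 excess of the 3' over the 5' control probe sets of Actb and Gapdh and a sign of RNA quality, was 2.01 and 1.93 in the C57BL/6 arrays and 2.02 and 2.00 in the WldS arrays of day 7. It stood at 3.81 in WldS day 0 replicate 1 and at 3.23 in WldS day 14 replicate 2, which bears on comparisons with those days. Schwann cell genes were bright in the 4 arrays of day 7, with Sox10, the lineage factor of Schwann cells, between 11.14 and 11.74. The muscle genes Ckm and Mb lay between 5.97 and 6.41, near the dim filter.

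Of the 14545 genes, 994 (6.83%) were called at an adjusted p below 0.05 (limma, Benjamini-Hochberg over the genes tested). Higher in WldS were 562 (3.86%) and lower 432 (2.97%), and 291 of the called genes differed at least 2-fold. The median difference over all genes tested was 0.002 on the log2 scale. For none of the called genes did the arrays of the strains overlap. With 2 arrays a strain this largely follows from the call, so the same remark on single genes below adds no support. The count fell to 522 without C57BL/6 day 7 replicate 1, to 427 without C57BL/6 day 7 replicate 2 and to 646 without WldS day 7 replicate 2. Before injury the strains differed in 33 genes (0.227%), at day 3 in 1373 (9.44%; 4.82% higher and 4.62% lower in WldS) and at day 14 in 939 (6.46%; 2.9% higher and 3.55% lower). At an unadjusted limma p below 0.05, 2549 genes differed between the strains at day 0 and 2597 at day 7. The 33 calls therefore do not show that the strains were alike before injury. The strain counts of days 0, 3 and 14 were not refitted under the alternatives. Against its own day 0, C57BL/6 had 36.1% of the genes called at day 7 and WldS 35.2%. With the 3'/5' index as a covariate, the 5244 calls of C57BL/6 became 5819 and the 5122 of WldS became 3335. The near equality of these shares therefore depended on the model. In bulk RNA of a pooled tissue, fewer cells of a type and less RNA per cell cannot be told apart.

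**Figure D1:**
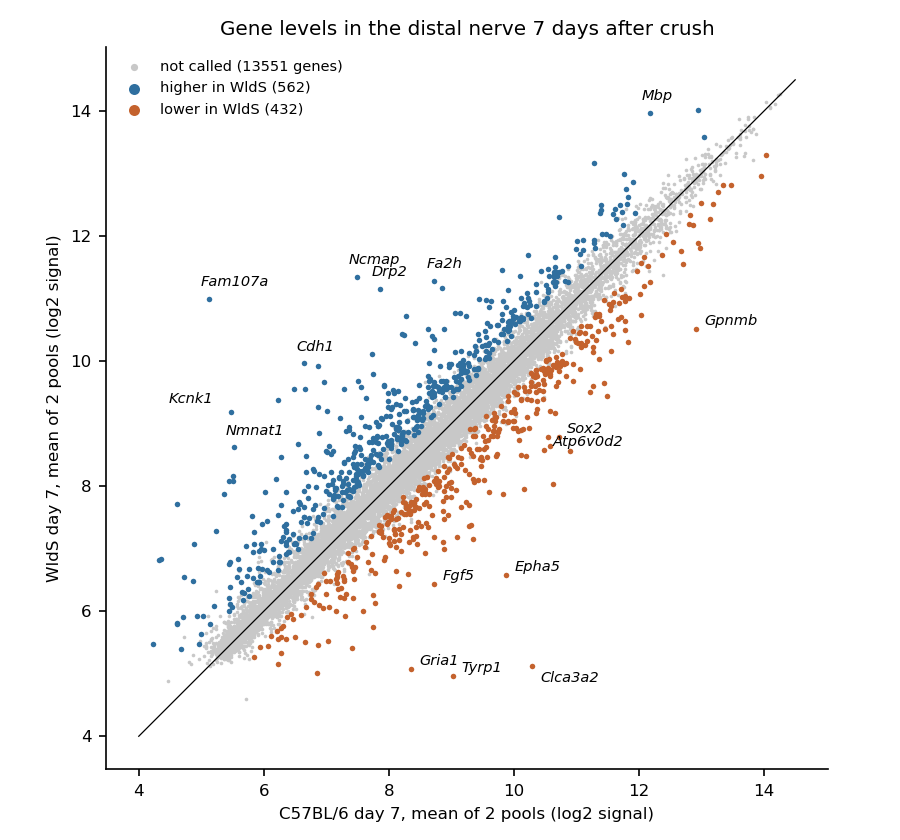
Mean log2 signal of 14545 genes at day 7 in C57BL/6 (horizontal axis) and WldS (vertical axis), each the mean of 2 pools; blue genes were called higher in WldS (562), orange genes lower (432), grey genes were not called, and the line marks equal levels. Fam107a, Ncmap and Kcnk1 lie farthest above the line, and Clca3a2 and Tyrp1 farthest below.

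The gene of the mutation was checked first. Nmnat1, which lies within the gene fusion of WldS mice, read 5.59 and 5.47 in the C57BL/6 pools of day 7 and 8.50 and 8.75 in the WldS pools. Both WldS pools lay far above both C57BL/6 pools, and the difference was 3.09 ± 0.16 (standard error, adjusted p = 2.81e-08), an 8.53-fold higher signal. Rbp7, a retinol-binding protein gene, read 5.88 and 5.76 in C57BL/6 and 6.4 and 6.66 in WldS, a difference of 0.71 ± 0.16 (adjusted p = 0.0146, 0.148 without C57BL/6 day 7 replicate 2). Ube4b, whose start is fused to Nmnat1 in WldS, differed by -0.18 ± 0.14 (adjusted p = 0.602), and whether its probe sets fall inside the fusion was not analysed here. Of the other NAD genes, Naprt, which starts NAD synthesis from nicotinic acid, was 0.47 ± 0.12 higher (adjusted p = 0.0278, 0.167 without C57BL/6 day 7 replicate 2). The other NMNAT genes Nmnat2 and Nmnat3 (-0.13 and -0.07), Sarm1, the NAD-cleaving executioner of axon breakdown (-0.18), and Nampt, which recycles nicotinamide (-0.08), did not pass. Nor did Nadk (0.25), Nmrk1 (-0.13), Qprt (-0.14), Parp1 (-0.02), Bst1 (0.16) and Sirt1 (-0.20). Of 14 genes in the list of NAD metabolism and the WldS locus, 3 were thus higher and 0 lower; 1 was called without either C57BL/6 day 7 replicate or without WldS day 7 replicate 2.

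A list of 7 strain genes, drawn up with earlier results of these same data known, held 3 higher and 1 lower member. At day 0 it held 2 higher and 2 lower, and the count is no independent support for a strain difference. Mageb16, a melanoma antigen family gene, read 4.56 and 4.08 in C57BL/6, below the dim filter, and 6.91 and 6.72 in WldS, so its difference of 2.50 ± 0.20 (adjusted p = 2.45e-06) is a lower bound. Jchain, which joins polymeric immunoglobulins, was at 5.34 and 5.67 in C57BL/6 and at 7.23 and 9.09 in WldS, and Mmrn1, a multimerin gene, at 5.38 and 5.51 against 7.17 and 8.98. The WldS pools of both genes lay above the C57BL/6 pools but differed from each other by more than 1 log2 unit, with replicate 2 the higher. The differences were 2.66 ± 0.50 for Jchain (adjusted p = 0.00397, 0.0546 when fitted on the 4 arrays of day 7 alone) and 2.63 ± 0.51 for Mmrn1 (adjusted p = 0.00539, 0.0638 without WldS day 7 replicate 2), and both fell to 1.73 without that array. Edil3, a matrix gene of vessels, was lower in WldS by -1.50 ± 0.19 (adjusted p = 0.00016), while its dimmer probe sets differed by -0.50 to 0.01. Pttg1 (-0.36 ± 0.11, adjusted p = 0.0755), Them5 (0.04) and Nnt (0.15) did not pass at day 7 in their brightest probe sets. Other probe sets of Pttg1 differed by -0.68 (limma over all probe sets, adjusted p = 0.0177) and -0.52, so a strain difference of Pttg1 at day 7 is not excluded. Pttg1, which encodes securin, and Them5 had differed before injury, by -2.77 and -2.72.

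Most of the 15 genes with the largest rise in WldS over C57BL/6 were far below their uninjured level in C57BL/6 nerves. Fam107a, which encodes an actin-binding protein, read 4.57 and 5.68 in C57BL/6 and 10.77 and 11.23 in WldS at day 7. The WldS pools were close to the uninjured means of 11.45 (C57BL/6) and 11.68 (WldS). The C57BL/6 mean was below the dim filter, so the difference of 5.88 ± 0.25 (adjusted p = 5.61e-09), or 58.7-fold, is a lower bound for this probe set only. The next brightest probe set of Fam107a differed by 3.11 and a dim one by 0.38, and the mean of its probe sets by 3.12. Ncmap, a membrane protein of noncompact myelin, was at 7.35 and 7.63 against 11.16 and 11.54 (3.86 ± 0.20, adjusted p = 2.92e-08), from uninjured means of 12.63 and 12.51. Cdh1, the E-cadherin of Schwann cell autotypic junctions, was at 6.72 and 6.57 against 9.97 and 9.98 (3.33 ± 0.12, adjusted p = 2.83e-09), and Plekha7, a protein of adherens junctions, at 6.73 and 6.58 against 9.20 and 9.92 (2.90 ± 0.24, adjusted p = 3.06e-06, and 1.64 when its probe sets were averaged, 1 of them at 0.33). For these junction genes both WldS pools were more than 2 log2 units above both C57BL/6 pools.

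Channels and signalling genes followed. Kcnk1, a potassium leak channel, was at 5.47 and 5.49 in C57BL/6 and at 9.08 and 9.31 in WldS (3.71 ± 0.21, adjusted p = 7.92e-08), although a dimmer probe set differed by 0.67 and the mean of its probe sets by 2.19. Adcy1, an adenylate cyclase, differed by 3.08 ± 0.16 (adjusted p = 3.27e-08) and Sema5a, a semaphorin, by 2.70 ± 0.20 (adjusted p = 1.09e-06, and 1.58 when its probe sets were averaged). Otop1, a proton channel, differed by at least 3.11 ± 0.22 (adjusted p = 6.24e-07) from C57BL/6 values of 4.71 and 4.50, below the dim filter. Ddn, the dendrin gene, differed by 3.15 ± 0.18 (adjusted p = 9.22e-08), Fam178b by 3.06 ± 0.26 (adjusted p = 4.79e-06), with a dimmer probe set at -0.03 and their mean at 1.51, and Chdh, a choline dehydrogenase, by 2.60 ± 0.16 (adjusted p = 1.17e-07). Of the 15 genes with the largest rise, Otop1, Nmnat1, Jchain and Mmrn1 were not well above the filter in uninjured C57BL/6 nerves (means of 5.66 to 6.17); the other 11 had uninjured C57BL/6 means of 9.63 or more.

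Of the 15 genes with the largest fall in WldS, all but Frzb were above the uninjured level in C57BL/6 nerves at day 7. Clca3a2, of the family of chloride channel regulators, read 10.33 and 10.25 in C57BL/6 against 4.82 and 5.45 in WldS. The WldS mean was below the dim filter, so the difference of -5.16 ± 0.24 (adjusted p = 9.92e-09), or 35.7-fold, is a lower bound for this probe set only. Another probe set of Clca3a2, dim at a mean of 3.86, differed by -1.78. Tyrp1, an enzyme of melanin synthesis in pigment cells, was at 9.05 and 9.01 against 5.03 and 4.90. It was about as dim in WldS as in uninjured nerve (means of 4.90 in C57BL/6 and 4.72 in WldS). The difference of -4.07 ± 0.16 (adjusted p = 2.83e-09) is a lower bound for this probe set only. The other probe sets of Tyrp1 differed by -1.99 and -2.15. Gria1, a subunit of AMPA glutamate receptors, was at 8.38 and 8.33 against 4.91 and 5.22 (adjusted p = 4.63e-08), and Epha5, an ephrin receptor, at 10.03 and 9.73 against 6.58 and 6.59 (-3.30 ± 0.15, adjusted p = 9.92e-09, with a dimmer probe set at -1.52). Against day 0 neither passed in WldS (0.18 for Epha5, adjusted p = 0.4, and -0.02 for Gria1, adjusted p = 0.95).

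Trpm3, a cation channel (-2.02 ± 0.27, adjusted p = 0.000273, and -1.20 when its probe sets were averaged), Lrrtm2, a leucine-rich adhesion protein (-2.00 ± 0.16, adjusted p = 1.87e-06), Flrt3, of a related adhesion family (-1.95 ± 0.14, adjusted p = 9.29e-07), and Sh3gl3, an endophilin (-2.33 ± 0.14, adjusted p = 9.22e-08), were lower too. Gadd45a, a growth arrest gene, was at 10.57 and 10.69 in C57BL/6 and at 8.83 and 7.22 in WldS (-2.60 ± 0.41, adjusted p = 0.0012). Its WldS pools were far apart and still below both C57BL/6 pools. The remaining genes of the 15 largest falls are described with their groups below: Gpnmb, Fgf5, Btc, Frzb, Pou3f1 and Sox2.

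**Figure D2:**
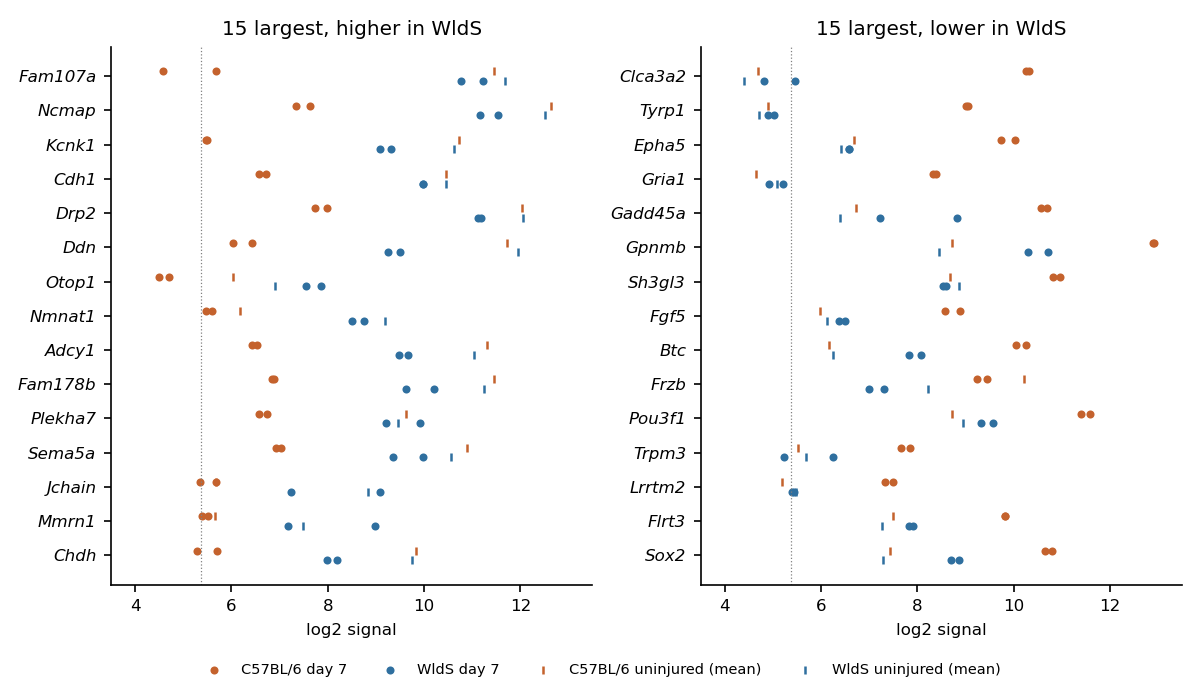
Log2 signal of the 15 genes with the largest rise (left) and the 15 with the largest fall (right) in WldS against C57BL/6 at day 7; dots are single pools of day 7, short bars are the uninjured means, orange is C57BL/6, blue is WldS, and the dotted line is the dim filter at 5.37. On the left most C57BL/6 dots lie far left of their uninjured bars and the WldS dots near theirs, and on the right the C57BL/6 dots lie right of their bars, except for Frzb.

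Most myelin protein genes were higher in WldS nerves at day 7, and their mean level lay nearer the uninjured one. Of 16 tested, 10 were higher and 1 was lower, against 3.86% higher and 2.97% lower of all genes, with a median of 0.92 against 0.002. The day 7 counts of all lists below stand against these same shares of all genes. A gene could stand in more than 1 of the lists that follow. Mbp, the myelin basic protein, read 12.19 and 12.15 in C57BL/6 and 13.94 and 14.01 in WldS. Both WldS pools were near the uninjured means of 14.28 and 14.32, and the difference was 1.80 ± 0.11 (adjusted p = 1.17e-07); of its 7 other probe sets 6 were higher by 0.78 to 2.51 and 1 differed by -0.33. Pmp2, a fatty acid carrier of peripheral myelin, was at 11.19 and 11.38 against 13.12 and 13.22 (1.88 ± 0.15, adjusted p = 2.07e-06). Drp2, a dystrophin relative at the outer Schwann cell membrane, was at 7.74 and 7.99 against 11.13 and 11.18 (3.29 ± 0.13, adjusted p = 2.83e-09), with both other probe sets higher too (3.80 and 0.51). The groups did not overlap for these genes, and the gap between strains was many times that between pools.

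Gjb1, the connexin of noncompact myelin that carries small molecules across the sheath, was at 7.54 and 7.74 against 9.50 and 9.33 (1.77 ± 0.19, adjusted p = 4.68e-05). Cldn19, the claudin of myelin tight junctions, differed by 1.4 ± 0.38 (adjusted p = 0.0379, 0.238 without C57BL/6 day 7 replicate 2). Gjc3, another connexin of myelinating glia and singled out after its values were seen as the one lower member, was at 8.55 and 8.47 against 7.28 and 7.46 (-1.14 ± 0.25, adjusted p = 0.0104), and its call ended without either C57BL/6 day 7 replicate or WldS day 7 replicate 1. The 5 members that did not pass had differences of 0.05 to 0.68. The count of higher members was 7 to 11 over the alternatives. Against its own day 0, C57BL/6 had 13 of the 16 lower and 0 higher (16.4% and 19.6% of all genes), and WldS had 6 lower and 2 higher (13.3% and 21.9%). The mean level of the 16 genes, relative to uninjured C57BL/6 nerve, was -1.58 and -1.54 in the C57BL/6 pools of day 7 and -0.47 and -0.40 in the WldS pools.

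The lipids of myelin are made by a set of enzymes that Schwann cells use heavily. Of 20 myelin lipid genes, 6 were higher in WldS and 1 was lower (median 0.24). Fa2h, which hydroxylates the fatty acids of myelin galactolipids, read 8.76 and 8.70 in C57BL/6 and 11.32 and 11.26 in WldS, a difference of 2.56 ± 0.11 (adjusted p = 4.77e-09), or 5.88-fold. Ugt8a, which makes galactocerebroside, was at 10.11 and 10.35 against 11.73 and 11.65 (1.46 ± 0.18, adjusted p = 0.00013). Both genes stood clear of the pool spread, as did the fatty acid elongases Elovl6 (1.63 ± 0.14, adjusted p = 6.41e-06, with another probe set at 0.23) and Elovl7 (1.55 ± 0.20, adjusted p = 0.000215, with another probe set at 0.28) and the NADPH source Me1 (1.00 ± 0.13, adjusted p = 0.000233). Aspa, which frees acetate from N-acetylaspartate, was the lower one, at 11.31 and 11.31 against 10.15 and 10.53 (-0.97 ± 0.18, adjusted p = 0.00388). Genes of general fatty acid synthesis gave small differences that did not pass, among them Fasn (0.24), Scd1 (0.04) and their regulator Srebf1 (-0.17).

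Most cholesterol synthesis genes fell in both strains after injury, and a minority were higher in WldS at day 7. Of 20, 17 were below day 0 in C57BL/6 (median -2.56) and 17 in WldS (median -1.71). Between the strains at day 7, 7 were higher in WldS and 0 lower, with a median of 0.52; the others ran from -0.20 to 0.76. Idi1, an isomerase of the isoprenoid steps, read 8.18 and 7.93 in C57BL/6 and 9.19 and 9.89 in WldS (1.49 ± 0.17, adjusted p = 9.39e-05), far below the uninjured means of 11.98 and 11.87. Hmgcs1, which makes HMG-CoA at the start of the pathway, was at 11.50 and 11.27 against 12.42 and 12.41 (1.03 ± 0.15, adjusted p = 0.000602). Both WldS pools exceeded both C57BL/6 pools for each, while neither strain was near its uninjured level. Downstream, the sterol demethylase Cyp51 (0.99 ± 0.12, adjusted p = 0.000131), Hsd17b7 (0.98 ± 0.17, adjusted p = 0.00233), the desaturase Sc5d (0.93 ± 0.16, adjusted p = 0.00202) and the squalene epoxidase Sqle (0.65 ± 0.15, adjusted p = 0.0186, 0.207 without C57BL/6 day 7 replicate 2) were higher. With probe sets averaged, Cyp51 differed by 0.60 and Hsd17b7 by 0.57, and single probe sets of Hmgcs1 and Sc5d differed by 0.35 and 0.06. The count ranged from 5 to 10 over the alternatives.

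Sterol regulatory element binding proteins switch these genes on through short promoter elements. The letters TCACNCCAC were searched on both strands in the 250 bases before each start in RefSeq promoters (GRCm38.p6). They occurred in 1 of 16 cholesterol genes with a promoter (6.25%) and in 1.22% of all 27025 genes with a promoter. The match was in Hmgcs1, on the plus strand of chr13:119690158-119690277, shown because Hmgcs1 was among the higher genes of the list, with the match in capitals:
Hmgcs1: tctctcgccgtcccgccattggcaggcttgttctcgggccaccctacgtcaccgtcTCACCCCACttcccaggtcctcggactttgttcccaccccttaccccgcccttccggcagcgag
A match describes the letters of the window and shows no binding.

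Most of the repair Schwann cell genes tested were lower in WldS. Of 18 tested, 10 were lower and 1 was higher (median -0.79). Sox2, a factor of immature and repair Schwann cells, read 10.65 and 10.80 in C57BL/6 and 8.70 and 8.86 in WldS, a difference of -1.94 ± 0.12 (adjusted p = 2.43e-07). Ngfr, the low-affinity neurotrophin receptor, was at 10.99 and 11.53 against 9.75 and 9.47 (-1.65 ± 0.27, adjusted p = 0.00146, and -1.05 when its probe sets were averaged), and Ucn2, a urocortin peptide gene, at 7.03 and 6.71 against 5.45 and 5.47 (-1.41 ± 0.13, adjusted p = 7.36e-06). The WldS pools of Sox2 and Ngfr lay between the C57BL/6 pools of day 7 and the uninjured means, and those of Ucn2 at the uninjured level of 5.24 and 5.39. Tnc, the matrix glycoprotein tenascin-C, was at 10.91 and 11.19 against 9.82 and 9.92 (-1.18 ± 0.21, adjusted p = 0.00349, 0.0605 without C57BL/6 day 7 replicate 2), far above 6.51 and 5.90 in uninjured nerve. Shh, the Sonic hedgehog ligand, was the exception and is named for that after its values were seen: it read 11.81 and 11.84 in C57BL/6 and 12.60 and 12.65 in WldS (0.80 ± 0.16, adjusted p = 0.00753), and its call ended without either C57BL/6 day 7 replicate or WldS day 7 replicate 2. The 7 members that did not pass lay between -0.41 and 0.14. The lower count was 7 to 11 over the alternatives, and the mean level of the 18 genes, relative to uninjured C57BL/6 nerve, was 1.72 and 1.80 in C57BL/6 and 0.91 and 0.94 in WldS.

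Transcription factors of Schwann cell state were lower in 8 and higher in 1 of 20 (median -0.32); 5 were lower without either C57BL/6 day 7 replicate. Pou3f1, the promyelinating factor also called Oct6, read 11.58 and 11.40 in C57BL/6 and 9.33 and 9.57 in WldS (-2.04 ± 0.18, adjusted p = 6.62e-06), with its other probe set at -2.37. Atf3, an injury-induced stress factor, was at 10.14 and 10.09 against 8.90 and 8.91 (-1.22 ± 0.12, adjusted p = 1.3e-05), and the WldS pools matched the uninjured means of 8.94 and 8.72. Hmga2, a chromatin architectural protein of growing cells, was at 9.73 and 9.73 against 8.58 and 8.45 (-1.21 ± 0.12, adjusted p = 1.74e-05). For each of these 3 factors the strains were separated by several times the pool spread. Sox4 was lower by -1.27 ± 0.27 (adjusted p = 0.00925, 0.102 without WldS day 7 replicate 2; -0.73 when its probe sets were averaged), and Id3, an inhibitor of helix-loop-helix factors, was higher by 0.94 ± 0.21 (adjusted p = 0.0116, 0.138 without WldS day 7 replicate 2). Egr2, the master factor of myelination, was at 11.47 and 11.46 in C57BL/6 and at 11.95 and 11.75 in WldS, a difference of 0.38 ± 0.17 that did not pass (adjusted p = 0.247).

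Growth factor genes moved in both directions, with 6 of 26 higher and 4 lower in WldS (median 0.18). The higher ones included ligands that uninjured nerve makes. Fgf1, a fibroblast growth factor abundant in peripheral nerve, read 8.36 and 8.07 in C57BL/6 and 10.45 and 10.41 in WldS (2.22 ± 0.22, adjusted p = 2.16e-05, and 1.37 when its probe sets were averaged, 1 of them at 0.35), from uninjured means of 11.66 and 11.18. The EGF receptor ligands Hbegf (8.97 and 9.15 against 10.67 and 10.87) and Tgfa (6.81 and 6.54 against 8.18 and 8.27) differed by 1.71 ± 0.18 (adjusted p = 4.14e-05) and 1.55 ± 0.18 (adjusted p = 0.000106). The other probe sets of Tgfa differed by 0.05 and -0.17, and its difference was 0.48 when all were averaged. A further ligand of that receptor went the other way. Btc, betacellulin, was at 10.06 and 10.25 in C57BL/6 and 8.07 and 7.83 in WldS (-2.21 ± 0.20, adjusted p = 8.57e-06), against 6.16 and 6.24 in uninjured nerve. Fgf5, a fibroblast growth factor gained on injury, was at 8.58 and 8.89 against 6.38 and 6.50 (-2.29 ± 0.14, adjusted p = 2.27e-07, and -1.22 when its probe sets were averaged), near the uninjured means of 5.98 and 6.12. These ligands also took different courses in C57BL/6, where Hbegf and Tgfa fell by 1.30 and fell by 2.80 since day 0 and Btc rose by 4.00. Tgfb1 was lower by -0.97 ± 0.25 (adjusted p = 0.0292, 0.318 without C57BL/6 day 7 replicate 2), and its other probe set differed by -0.02. Without C57BL/6 day 7 replicate 1 the higher count was 3, and the lower count was 2 without replicate 2 of either strain at day 7.

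Secreted Wnt antagonists were also split, with 2 of 9 higher and 3 lower (median 0.45). Frzb, a decoy for Wnt ligands, read 9.25 and 9.44 in C57BL/6 and 7.30 and 7.00 in WldS (-2.20 ± 0.21, adjusted p = 1.17e-05), but the strains had differed by -2.00 ± 0.21 before injury too (adjusted p = 0.000319). Sostdc1, a Wnt and BMP antagonist, was at 11.48 and 11.42 against 10.44 and 10.57 (-0.94 ± 0.11, adjusted p = 0.000106), and Wif1 at 8.99 and 9.22 against 8.32 and 8.61 (-0.64 ± 0.14, adjusted p = 0.0124, 0.176 without C57BL/6 day 7 replicate 2). Sfrp5, a frizzled-related decoy, was higher by 0.91 ± 0.17 (adjusted p = 0.00448, 0.0898 when its probe sets were averaged) and Dkk2, a dickkopf inhibitor, by 0.69 ± 0.19 (adjusted p = 0.0487, 0.365 without C57BL/6 day 7 replicate 2). Without C57BL/6 day 7 replicate 1 the higher count was 0, without any other array of day 7 it was 1, and without either WldS day 0 replicate it was 4.

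Nerve holds axons but not the nuclei of their neurons. Of 10 genes typical of neurons, 2 were higher and 2 lower (median -0.04). Without either C57BL/6 day 7 replicate or WldS day 7 replicate 2 the higher count was 1, and without either C57BL/6 day 7 replicate or WldS day 7 replicate 1 the lower count was 0. Rtn1, a reticulon of the endoplasmic reticulum, read 6.56 and 6.72 in C57BL/6 and 8.01 and 7.82 in WldS (1.28 ± 0.16, adjusted p = 0.000168), from 9.38 and 8.94 before injury. Gap43, a growth-associated protein that repair Schwann cells also make, was at 7.70 and 7.86 against 6.27 and 6.96 (-1.17 ± 0.25, adjusted p = 0.0102, 0.108 without C57BL/6 day 7 replicate 2). Nefl, the light neurofilament, was at 4.67 and 4.67 in C57BL/6, below the dim filter, and at 5.36 and 5.42 in WldS. The difference of 0.72 ± 0.20 (adjusted p = 0.0443) is a lower bound for this probe set only, and a dim one differed by 0.60. The call of Nefl ended under quantile normalization and with the replicate block. Tubb3, a neuronal tubulin, differed by -0.81 ± 0.18 (adjusted p = 0.0117, 0.122 without C57BL/6 day 7 replicate 1).

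**Figure D3:**
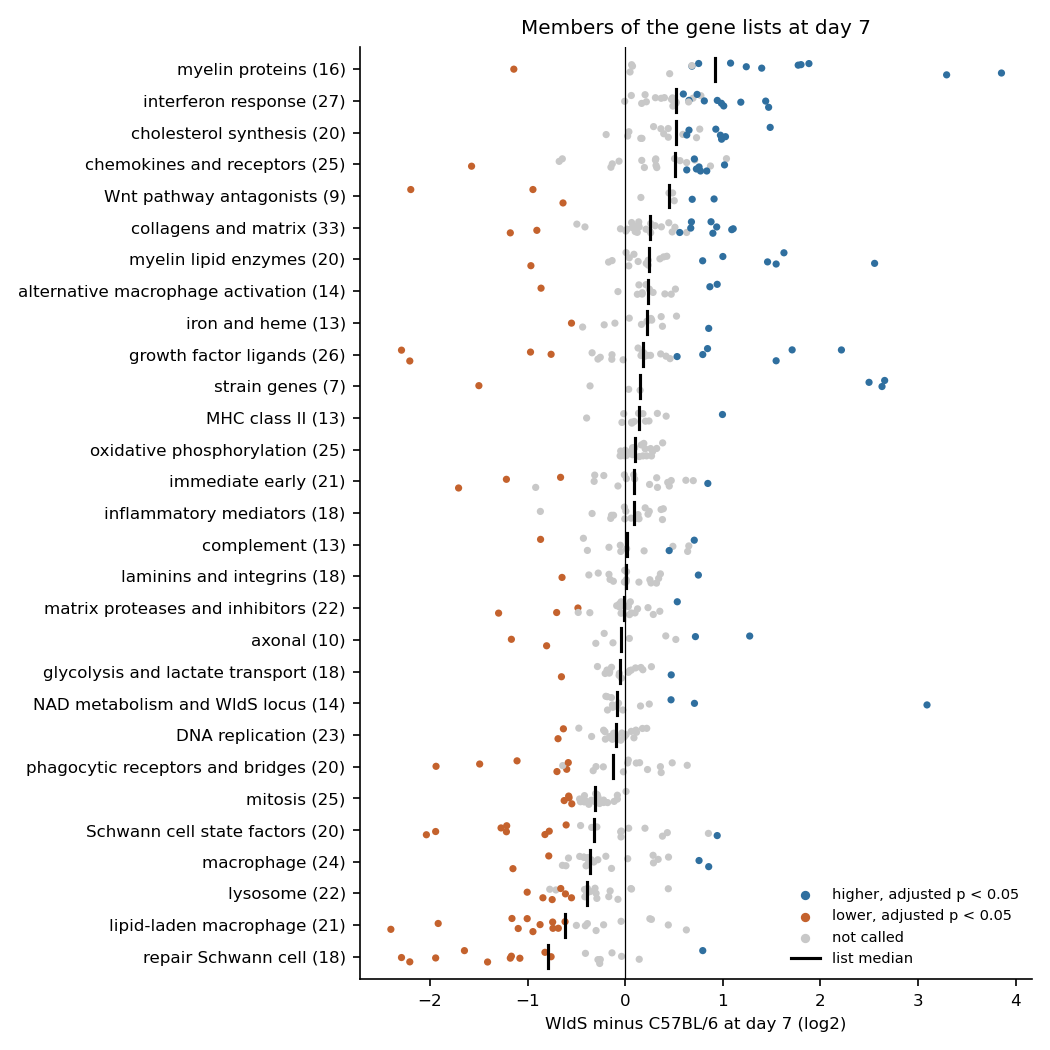
Difference WldS minus C57BL/6 at day 7 (log2) of the tested members of each functional gene list, 1 dot a gene, with lists ordered by their median (black bar) and the number tested in brackets; blue and orange dots were called higher and lower, grey dots were not called. Among these lists, which leave out the cell type markers, myelin proteins have the highest median (0.92) and repair Schwann cell genes the lowest (-0.79).

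Of the general macrophage genes 16.7% were called, against 6.83% of all genes, while 11 of 21 genes of macrophages loaded with lipid were lower in WldS. Of 24 macrophage genes, 2 were higher and 2 lower (median -0.36). The higher count was 0 without either C57BL/6 day 7 replicate and 1 without WldS day 7 replicate 2, and the lower count 0 without replicate 1 of either strain at day 7 and 1 without C57BL/6 day 7 replicate 2. Csf1r, the receptor that macrophages need to survive, read 13.09 and 12.93 in C57BL/6 and 13.00 and 13.08 in WldS (0.03 ± 0.13, adjusted p = 0.969), with overlapping pools. Cd68, an endosomal glycoprotein, was lower by -1.15 ± 0.24 (adjusted p = 0.00884, 0.117 without C57BL/6 day 7 replicate 1), and Ms4a7 by -0.78 ± 0.18 (adjusted p = 0.0139, 0.116 without C57BL/6 day 7 replicate 2). The scavenger receptor Cd163 (0.86 ± 0.19, adjusted p = 0.0125, 0.118 without C57BL/6 day 7 replicate 2) and the monocyte chemokine receptor Ccr2 (0.76 ± 0.18, adjusted p = 0.0206, 0.205 without C57BL/6 day 7 replicate 1) were higher, and Ccr2 differed by 0.45 when its probe sets were averaged. The mean level of the 24 genes, relative to uninjured C57BL/6 nerve, was 1.32 and 1.31 in C57BL/6 and 0.94 and 1.28 in WldS. WldS replicate 2 was close to both C57BL/6 pools.

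Of 21 genes of lipid-laden macrophages, 11 were lower and 0 higher (median -0.62); 7 were lower without either C57BL/6 day 7 replicate or without WldS day 7 replicate 1. Gpnmb, a glycoprotein of lipid-filled phagocytes and pigment cells, read 12.92 and 12.90 in C57BL/6 and 10.30 and 10.72 in WldS (-2.40 ± 0.15, adjusted p = 2.31e-07), with its other probe set at -2.18. Atp6v0d2, a proton pump subunit of phagocytes and osteoclasts, was at 10.40 and 10.59 against 8.52 and 8.64 (-1.92 ± 0.19, adjusted p = 1.74e-05). Plin2, which coats lipid droplets, was at 12.69 and 12.73 against 11.42 and 11.68 (-1.16 ± 0.10, adjusted p = 7.43e-06). In each the WldS pools lay between the uninjured means and the C57BL/6 pools. Trem2, a lipid-sensing receptor, was lower by -1.10 ± 0.17 (adjusted p = 0.00127), although a second probe set differed by -0.10 and their mean by -0.60, and Npc1, which exports cholesterol from lysosomes, by -0.94 ± 0.24 (adjusted p = 0.0264, 0.163 without C57BL/6 day 7 replicate 1). The 10 members that did not pass ran from -0.50 to 0.63.

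Phagocytic receptors and the bridging proteins that tether debris to them had 6 of 20 lower and 0 higher (median -0.12), with 3 lower without C57BL/6 day 7 replicate 2. Cd300lf, a receptor for lipids of dying cells, read 9.32 and 9.32 in C57BL/6 and 7.17 and 7.59 in WldS (-1.94 ± 0.24, adjusted p = 0.000131). Megf10, an engulfment receptor of glia, was at 10.55 and 10.78 against 9.15 and 9.20 (-1.49 ± 0.20, adjusted p = 0.000255), and Stab1, a scavenger receptor, at 10.27 and 10.15 against 9.08 and 9.12 (-1.11 ± 0.14, adjusted p = 0.000203). The strains did not overlap in any of these receptors. Sirpa (-0.70 ± 0.13, adjusted p = 0.00399), the receptor kinase Mertk (-0.60 ± 0.11, adjusted p = 0.0037) and its ligand Pros1 (-0.58 ± 0.14, adjusted p = 0.0174) were lower by less, and their adjusted p values without C57BL/6 day 7 replicate 2 were 0.0502, 0.0535 and 0.141.

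Among 22 lysosomal genes 6 were lower and 0 higher (median -0.39), with 2 lower without C57BL/6 day 7 replicate 1, 1 without replicate 2, and 10 when probe sets of a gene were averaged. Ctsd, the protease cathepsin D, read 13.96 and 13.96 in C57BL/6 and 12.90 and 13.01 in WldS (-1.0 ± 0.17, adjusted p = 0.0019). Gusb, a glucuronidase, was at 10.79 and 10.83 against 9.95 and 9.98 (-0.84 ± 0.16, adjusted p = 0.00487, 0.0557 without C57BL/6 day 7 replicate 2). Both lay well above the uninjured means in either strain. Ctsa (-0.75), Psap, the precursor of the saposins (-0.66), Tpp1 (-0.61) and Hexa (-0.55) were also lower, and the calls of these 4 ended without either C57BL/6 day 7 replicate (adjusted p up to 0.262, 0.0997, 0.0846 and 0.16 over the alternatives). Ctsa differed by -0.45 without WldS day 7 replicate 1 and by -0.43 when its probe sets were averaged.

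Lysosomal and lipid-handling genes are known targets of the MITF and TFE factors, which bind E-boxes. The letters TCANGTGA, where N is any base, were searched on both strands in the same 250 bases. Some matches therefore differ from TCACGTGA, among them TCACCTGA in Ctsa and TCAGGTGA in Galc and Lgals3. Whether the factors bind such letters was not tested. They were present in 5 of 20 lysosomal genes with a promoter (25%), in 3 of 16 genes of lipid-laden macrophages (18.8%) and in 3.98% of all 27025 genes with a promoter. The lower genes Ctsd and Ctsa held a match, shown in capitals, on the minus strand of chr7:142387863-142387982 and the plus strand of chr2:164833653-164833772, where Ctsa has 2 matches (the letters were found on either strand):
Ctsd: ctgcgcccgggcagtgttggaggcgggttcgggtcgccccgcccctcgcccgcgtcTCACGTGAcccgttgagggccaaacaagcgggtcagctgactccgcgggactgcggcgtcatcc
Ctsa: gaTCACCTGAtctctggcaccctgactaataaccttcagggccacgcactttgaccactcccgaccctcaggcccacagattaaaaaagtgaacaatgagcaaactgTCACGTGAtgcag
A match describes the letters only.

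Markers of alternative macrophage activation were higher in 2 and lower in 1 of 14 (median 0.23). Retnla, a secreted protein induced by type 2 cytokines, read 11.81 and 11.80 in C57BL/6 and 12.73 and 12.77 in WldS (0.94 ± 0.11, adjusted p = 0.000106), and WldS was at its uninjured mean of 12.66. Mgl2, a C-type lectin, was at 6.33 and 6.30 against 7.24 and 7.12 (0.87 ± 0.15, adjusted p = 0.00238). Clec7a, a receptor for fungal glucan, was at 11.13 and 11.04 against 10.05 and 10.39 (-0.86 ± 0.17, adjusted p = 0.00481, 0.0553 without C57BL/6 day 7 replicate 1). Arg1 (0.25) and Chil3 (0.18), the markers most often used, did not pass. Of 18 inflammatory mediators 0 were called, with differences of -0.87 to 0.39, among them Il1b (0.37 ± 0.15, adjusted p = 0.194) and Tnf (-0.14 ± 0.12, adjusted p = 0.664).

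Chemokines and their receptors had 7 of 25 higher and 1 lower (median 0.51), and the higher count was 3, 2 and 3 without C57BL/6 day 7 replicate 1, replicate 2 and WldS day 7 replicate 2. Cxcr4, the receptor of Cxcl12, read 7.29 and 7.86 in C57BL/6 and 5.94 and 6.07 in WldS (-1.57 ± 0.23, adjusted p = 0.000651). Cxcl14 was at 8.72 and 8.72 against 9.38 and 9.60 (0.77 ± 0.13, adjusted p = 0.00161, and 1.33 when its probe sets were averaged). In both genes the arrays were clearly apart. Pf4 (0.84 ± 0.20, adjusted p = 0.0208), Ccr1 (0.73 ± 0.16, adjusted p = 0.0126) and Cxcl9, an attractant of T cells (1.02 ± 0.27, adjusted p = 0.0376), were higher with adjusted p up to 0.243, 0.153 and 0.325 over the alternatives, and Cxcl9 differed by 0.67 without WldS day 7 replicate 2 and by 0.64 when its probe sets were averaged. MHC class II genes had 1 of 13 called, which at 7.69% is near the 6.83% of all genes, and a median of 0.14. It was the peptide loader H2-DMa, higher by 1.00 ± 0.18 (adjusted p = 0.00323), a call that ended without C57BL/6 day 7 replicate 2. Of 13 complement genes the membrane regulator Cd59a (0.71 ± 0.12, adjusted p = 0.00269) and C2 (0.45 ± 0.12, adjusted p = 0.0331, 0.226 without C57BL/6 day 7 replicate 1) were higher, and the receptor C3ar1 was lower (-0.87 ± 0.20, adjusted p = 0.0181; -0.50 and adjusted p = 0.202 without WldS day 7 replicate 2). Without either C57BL/6 day 7 replicate or WldS day 7 replicate 2, 1 complement gene was higher and 0 lower.

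Interferon response genes were higher in WldS in 10 of 27, and 0 were lower (median 0.52). Ifit1, which binds foreign RNA, read 7.26 and 6.88 in C57BL/6 and 8.54 and 8.48 in WldS (1.44 ± 0.27, adjusted p = 0.00391, 0.0679 without C57BL/6 day 7 replicate 2). Oasl2, of the oligoadenylate synthetase family, was at 8.13 and 7.77 against 9.03 and 9.24 (1.19 ± 0.19, adjusted p = 0.00138), and Irf7, the factor that amplifies the response, at 7.81 and 7.57 against 8.54 and 8.86 (1.01 ± 0.19, adjusted p = 0.00418, 0.0694 without C57BL/6 day 7 replicate 2). For each of these genes both WldS pools lay above both C57BL/6 pools. Slfn4 (1.47 ± 0.30, adjusted p = 0.00797), Rtp4 (0.99 ± 0.21, adjusted p = 0.00988) and Usp18, which restrains the pathway (0.94 ± 0.24, adjusted p = 0.03), were also higher, with adjusted p up to 0.102, 0.0887 and 0.217 when 1 array of day 7 was left out. Slfn4 differed by 0.97 without WldS day 7 replicate 2, and Rtp4 by 0.65 when its probe sets were averaged. The count fell when any 1 array of day 7 was left out. Such a fit leaves 1 array in a group, and the calls over all genes also fell without either C57BL/6 array or WldS replicate 2. Lost precision and dependence on a single pool can therefore not be told apart here. Against day 0, 13 of the 27 were higher in WldS at day 7 (21.9% of all genes). In C57BL/6 2 were higher and 4 lower (19.6% and 16.4% of all genes). The mean level of the list, relative to uninjured C57BL/6 nerve, was -0.03 and -0.12 in C57BL/6 and 0.53 and 0.56 in WldS.

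Interferon genes are switched on through the ISRE, whose core (GAAA, any 2 bases, GAAA) was searched on both strands. It was found in 11 of 20 interferon genes with a promoter (55%) and in 3.46% of all 27025 genes with a promoter. Of the 6 called members with a promoter, Ifit1 and Igtp, an interferon-inducible GTPase, held it, on the plus strands of chr19:34640749-34640868 and chr11:58199436-58199555; capitals mark the core, which in Ifit1 reads on the opposite strand:
Ifit1: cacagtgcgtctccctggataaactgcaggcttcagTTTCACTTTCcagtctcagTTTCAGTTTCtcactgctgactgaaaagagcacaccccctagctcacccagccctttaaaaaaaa
Igtp: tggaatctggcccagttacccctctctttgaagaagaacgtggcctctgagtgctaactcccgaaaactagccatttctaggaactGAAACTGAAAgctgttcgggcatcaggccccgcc
Igtp, chosen for its promoter after its values were seen, differed by 0.60 ± 0.13 (adjusted p = 0.0118).

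Most proliferation genes rose after injury in both strains, and a minority were called between the strains at day 7. All 25 mitotic genes tested were higher than at day 0 in C57BL/6 (median 2.48) and all 25 in WldS (median 2.06). Between the strains 4 were lower and 0 higher (median -0.31), which is 16% called against 6.83% of all genes. Of the 21 not called, 20 had differences below 0. Top2a, which untangles chromosomes, read 10.04 and 10.06 in C57BL/6 and 9.37 and 9.58 in WldS (-0.57 ± 0.12, adjusted p = 0.00783, 0.0746 without C57BL/6 day 7 replicate 2). Cenpf (-0.58 ± 0.13, adjusted p = 0.0142), the proliferation marker Mki67 (-0.62 ± 0.17, adjusted p = 0.041) and the spindle protein Prc1 (-0.55 ± 0.14, adjusted p = 0.0335) were lower as well, with adjusted p up to 0.103, 0.226 and 0.307 without 1 array of day 7. With probe sets averaged, Top2a differed by -0.28 and Cenpf by -0.32. The count was 0 without either C57BL/6 pool of day 7 or WldS replicate 1 of that day, and 2 when WldS day 7 replicate 2 was left out or either WldS day 3 replicate. Of 23 DNA replication genes, 2 were lower and 0 higher (median -0.09), and these 8.7% are near the 6.83% of all genes. The lower genes were Rrm2, which makes deoxynucleotides (10.90 and 11.08 against 10.39 and 10.22, -0.69 ± 0.14, adjusted p = 0.00594), and Uhrf1 (-0.63 ± 0.16, adjusted p = 0.0278), with adjusted p up to 0.0981 and 0.226 without 1 array of day 7; the count was 0 without C57BL/6 day 7 replicate 2 and 1 without any other array of day 7. The mean mitotic level, relative to uninjured C57BL/6 nerve, was 2.53 and 2.63 in C57BL/6 and 2.10 and 2.41 in WldS.

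Of 33 collagen and matrix genes, 8 were higher and 2 lower in WldS (median 0.25), with 3 higher without C57BL/6 day 7 replicate 2 and 5 without either WldS day 7 replicate, and with 1 lower without any array of day 7 but WldS replicate 1. Lox, which crosslinks collagen, read 11.57 and 11.23 in C57BL/6 and 12.61 and 12.40 in WldS (1.11 ± 0.23, adjusted p = 0.00915, 0.131 without C57BL/6 day 7 replicate 2). Comp, a cartilage and tendon matrix protein, was at 7.57 and 7.50 against 8.76 and 8.50 (1.09 ± 0.13, adjusted p = 0.000134), and Fmod, which binds collagen fibrils, at 9.01 and 8.92 against 9.88 and 9.92 (0.94 ± 0.15, adjusted p = 0.00121, with another probe set at 0.33). In these the pools of a strain were close and the strains apart. Col12a1 was higher by 0.90 ± 0.23 (adjusted p = 0.0287, 0.255 without C57BL/6 day 7 replicate 2; 0.30 when its probe sets were averaged), whereas Thbs2, a thrombospondin, was lower (-0.91 ± 0.17, adjusted p = 0.00391, 0.0555 without C57BL/6 day 7 replicate 1), as was Tnc. The fibrillar collagens Col1a1 (0.07), Col1a2 (0.01) and Col3a1 (0.02) did not pass. Among 22 proteases and inhibitors 3 were lower, led by the membrane metalloprotease Mmp17 (9.34 and 9.38 against 8.10 and 8.03, -1.30 ± 0.14, adjusted p = 4.97e-05) and Mmp8 (-0.70 ± 0.12, adjusted p = 0.00276), with Mmp16 (-0.48 ± 0.12, adjusted p = 0.0238, a call that ended without each array of day 7 in turn, with p up to 0.22), and 1 was higher, Adamts12 (0.53 ± 0.12, adjusted p = 0.0147, 0.175 without C57BL/6 day 7 replicate 2). Among 18 laminins and integrins 11.1% were called, against 6.83% of all genes. Itga1, a collagen receptor chain, was higher (0.75 ± 0.14, adjusted p = 0.00312, and 0.46 when its probe sets were averaged). Itgb8 was lower (-0.65 ± 0.13, adjusted p = 0.00534), a call that ended without C57BL/6 day 7 replicate 2.

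Some markers of vessels and connective tissue were higher in WldS too. Of 14 endothelial markers 6 were higher in WldS and 0 lower (median 0.49), and their mean level, relative to uninjured C57BL/6 nerve, was -0.23 and -0.31 in C57BL/6 and 0.29 and 0.12 in WldS. Plvap, of fenestrated endothelium, read 9.55 and 9.56 against 10.08 and 10.44 (0.71 ± 0.14, adjusted p = 0.00552, 0.0727 without WldS day 7 replicate 2). Of 10 pericyte and smooth muscle markers 5 were higher and 0 lower (median 0.56), with mean levels of -0.47 and -0.54 against 0.04 and 0.03, among them Rgs5 (0.61 ± 0.14, adjusted p = 0.0132, 0.157 without C57BL/6 day 7 replicate 2) and Acta2, smooth muscle actin (0.66 ± 0.12, adjusted p = 0.00366; 0.27 and adjusted p = 0.0835 when its probe sets were averaged). Neither list's pools overlapped between strains. The endothelial count was 0 without either C57BL/6 day 7 replicate, and 2 and 3 when WldS replicate 1 or 2 of that day was left out, and the pericyte count 2, 1, 1 and 3 without the same arrays in that order (C57BL/6 replicate 1 and 2, WldS replicate 1 and 2).

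Of 10 fibroblast markers 3 were higher (median 0.29; 1 without C57BL/6 day 7 replicate 1 and 0 without replicate 2), led by the microfibril protein Mfap5 (11.46 and 11.27 against 12.44 and 12.30, 1.00 ± 0.18, adjusted p = 0.00318, 0.0529 without C57BL/6 day 7 replicate 2), and of 6 perineurial markers 3 (median 0.50; 1 without either C57BL/6 day 7 replicate or WldS day 7 replicate 2). Of 8 mast cell markers 3 were higher (median 0.62), with mean levels of -0.33 and -0.37 in C57BL/6 and 0.18 and 0.39 in WldS; the protease Cma1 read 8.18 and 8.33 against 9.24 and 9.57 (1.15 ± 0.21, adjusted p = 0.00312). Without either C57BL/6 day 7 replicate or WldS day 7 replicate 2 the mast cell count was 1, and with WldS day 0 replicate 1 or 2 left out it was 5. The 7 T cell, 9 neutrophil, 6 muscle and 7 adipocyte markers had 0 members called in either direction. Of 6 B cell markers 1 was lower, Cd22 (9.50 and 9.34 against 7.96 and 8.25, -1.32 ± 0.18, adjusted p = 0.000382), with the defining Cd79a at 5.40 to 5.69 in the 4 arrays. Of 7 plasma cell markers Jchain and Ighm, the IgM heavy chain (8.60 and 8.79 against 9.67 and 11.15, 1.72 ± 0.48, adjusted p = 0.0446; 0.98 and adjusted p = 0.395 without WldS day 7 replicate 2, and 0.29 when its probe sets were averaged), were higher, and 1 was without either C57BL/6 day 7 replicate or WldS day 7 replicate 2. Of 6 Schwann cell markers 3 were lower, namely Ngfr, the neuregulin receptor Erbb3 (11.99 and 12.07 against 11.05 and 10.43, -1.29 ± 0.19, adjusted p = 0.00069, and -0.75 when its probe sets were averaged) and Foxd3 (-1.20 ± 0.23, adjusted p = 0.00539, 0.0506 without WldS day 7 replicate 1, which left 2 lower), and 1 was higher, S100b (0.54 ± 0.15, adjusted p = 0.0488; 0.29 and adjusted p = 0.42 without WldS day 7 replicate 2). A second probe set of S100b differed by 1.07 (limma over all probe sets, adjusted p = 0.00129). What part these cell types had in the differences of the other lists was not tested.

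Immediate early genes had 1 of 21 higher and 3 lower (median 0.09), and 2 higher and 5 lower without WldS day 7 replicate 1. Egr3, an activity-induced factor, read 10.25 and 10.13 in C57BL/6 and 8.30 and 8.68 in WldS (-1.71 ± 0.18, adjusted p = 2.86e-05), although its other probe set differed by -0.02 and the difference was -0.87 when its probe sets were averaged. Fos was lower (11.49 and 11.62 against 10.89 and 10.89, -0.66 ± 0.11, adjusted p = 0.00224), and Nr4a2, a nuclear receptor, was higher (0.85 ± 0.15, adjusted p = 0.00313, and 0.43 when its probe sets were averaged). Few genes of energy metabolism passed, with 11.1% of the glycolysis list called against 6.83% of all genes. Of 25 oxidative phosphorylation genes 0 were called, with differences of -0.05 to 0.38, and of 18 glycolysis genes 1 was higher, the glucose transporter Slc2a1 (0.47 ± 0.12, adjusted p = 0.0312), and 1 lower, the neuronal enolase Eno2 (-0.65 ± 0.13, adjusted p = 0.00578), with adjusted p of 0.226 and 0.118 without C57BL/6 day 7 replicate 1 and replicate 2. Of 13 iron and heme genes Cd163, which takes up haemoglobin, was higher and Slc11a1, a phagosomal metal carrier, lower (-0.55 ± 0.14, adjusted p = 0.0334, 0.195 without C57BL/6 day 7 replicate 1).

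The next question was whether the strain difference at day 7 differed from that of other days, tested as the difference of the differences. Against day 0 this held for 598 genes (4.11%), 420 of them in the upward direction (2.89%) and 178 downward (1.22%). Against day 3 it held for 331 (2.28%) and against day 14 for 224 (1.54%). Without single arrays the first count was 302 (C57BL/6 day 0 replicate 1), 369 (C57BL/6 day 0 replicate 2), 287 (C57BL/6 day 7 replicate 1), 235 (C57BL/6 day 7 replicate 2), 362 (WldS day 0 replicate 1), 1647 (WldS day 0 replicate 2) and 396 (WldS day 7 replicate 2). The second was 169 (C57BL/6 day 3 replicate 1), 161 and 140 (C57BL/6 day 7 replicates 1 and 2), and 166 and 175 (WldS day 3 replicates 1 and 2), and the last 139 and 129 (C57BL/6 day 7 replicates 1 and 2) and 140 (C57BL/6 day 14 replicate 2). These comparisons share the arrays of day 7.

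Of the 16 myelin protein genes, the strain difference exceeded that of day 0 in 8 and that of day 14 in 8 (2.89% and 0.914% of all genes), with 0 in the other direction. Against day 3, 2 were larger and 3 smaller (1.15% and 1.13% of all genes). The strain medians of the list were -0.07 before injury, 1.27 at day 3, 0.92 at day 7 and -0.17 at day 14. Ncmap differed by -0.13, 4.59, 3.86 and -0.25 at the 4 time points. Gjb1 had turned its sign, at -2.05 ± 0.19 on day 3 (adjusted p = 6.66e-06) and 1.77 on day 7, and this change passed (3.82 ± 0.27, adjusted p = 3.15e-06). Cholesterol genes had strain medians of -0.05, 0.06, 0.52 and -0.42 at the 4 times. The change from day 14 passed in 6 of 20, all upward (0.914% of all genes). Idi1 differed by 1.49 at day 7 and -1.09 ± 0.17 at day 14 (adjusted p = 0.0018), a change of 2.58 ± 0.24 (adjusted p = 3.82e-05).

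Repair Schwann cell genes had strain medians of -0.09, -1.14, -0.79 and -0.12. The difference at day 7 was less negative than at day 3 in 9 of 18 and more negative than at day 14 in 6 (1.15% and 0.626% of all genes). Sox2 differed by -3.82 at day 3, -1.94 at day 7 and -0.71 at day 14. Genes of lipid-laden macrophages had medians of 0.04 at day 3, -0.62 at day 7 and -0.70 at day 14. The step from day 3 passed in 4 of 21, all downward (1.13% of all genes). Tyrp1 and Gpnmb differed by -0.04 and 0.04 at day 3, by -4.07 and -2.40 at day 7 and by -1.69 and -1.66 at day 14, and both steps from day 3 passed (adjusted p = 5.09e-07 and 2.91e-05). Interferon genes had medians of 0.94, 0.52 and 0.12 at the same days, and in 2 of 27 the difference at day 7 was smaller than at day 3 (1.13% of all genes). Mitotic genes turned from -0.65 at day 3 and -0.31 at day 7 to 0.40 at day 14, and in 5 of 25 the difference at day 7 was below that at day 14 (0.626% of all genes).

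**Figure D4:**
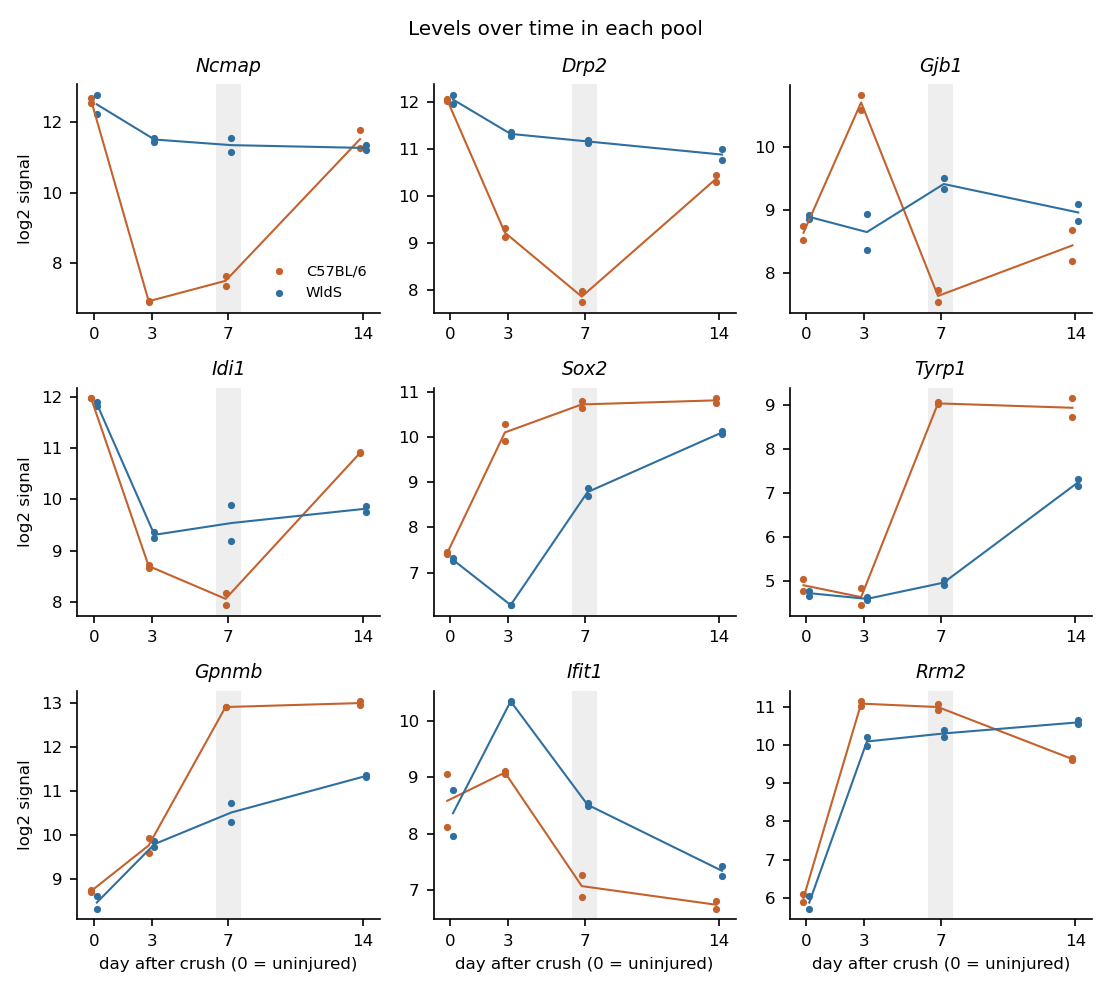
Log2 signal of 9 genes in each pool (dots) and the group means (lines) at day 0, 3, 7 and 14 after crush, C57BL/6 in orange and WldS in blue, with day 7 shaded. Ncmap and Drp2 are far lower in C57BL/6 at day 7, Sox2, Tyrp1 and Gpnmb are higher, and Gjb1 has WldS below C57BL/6 at day 3 and above it at day 7.

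**Figure D5:**
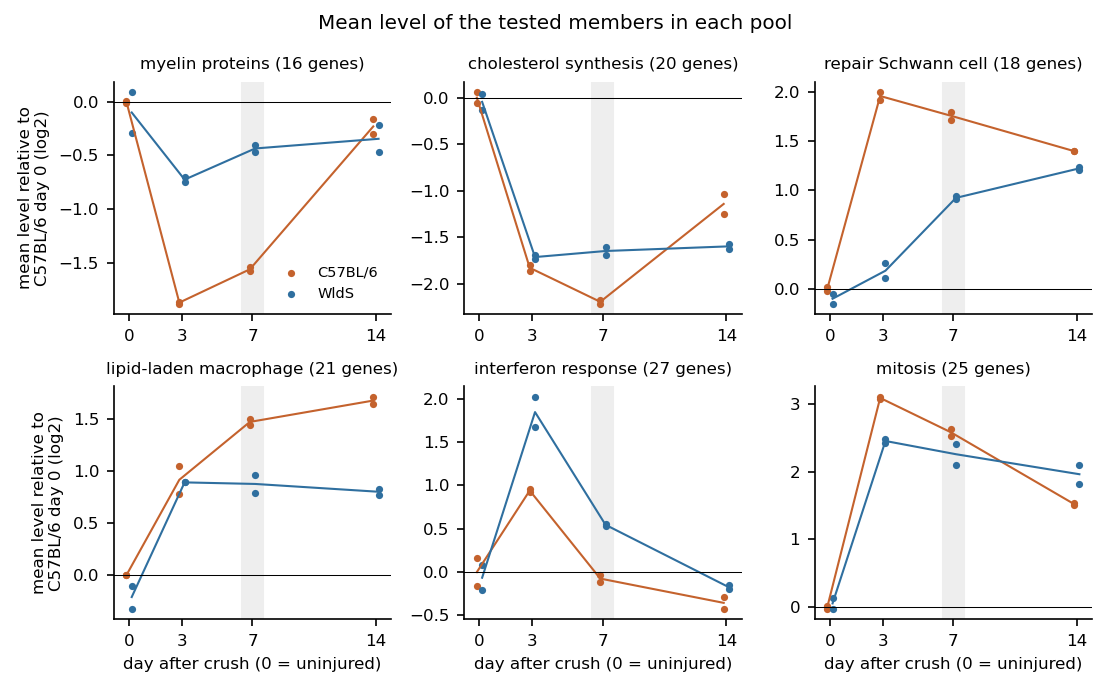
Mean log2 level of the tested members of 6 gene lists in each pool (dots), relative to the mean of the uninjured C57BL/6 pools, with group means as lines and day 7 shaded; orange is C57BL/6 and blue is WldS. At day 7 myelin proteins stand at -1.58 and -1.54 in C57BL/6 against -0.47 and -0.40 in WldS, and repair Schwann cell genes at 1.72 and 1.80 against 0.91 and 0.94.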

How the data were processed

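The authors deposited log2 signals of 45101 probe sets for each of the 16 arrays, and these values were used as deposited. GCOS 1.4, RMA, limma and Partek are named per the submitters' processing notes, without a role for each. The platform annotation gives 34945 probe sets 1 gene symbol, 932 several and 9160 none, and 64 are controls. A gene was read from its brightest probe set by mean signal, and genes with a mean below the 30th percentile of probe sets (5.37) were left out, which left 14545. No batch is given in the labels. With 2 pools a group, the number of arrays limits the precision. A fit without 1 array leaves 1 in that group, so its counts can also fall through lost precision.

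One model with a mean for each of the 8 groups was fitted in limma 3.58.1 (R 4.3.3) with empirical Bayes moderation. Adjusted p-values are Benjamini-Hochberg over the 14545 genes, and a gene was called below 0.05. Named are the 15 largest rises and falls among called genes, up to 6 called members of each list by size, and the NAD, WldS locus and strain genes. Other named genes are said to be chosen after their values were seen, or are well-known list members without a call, picked with values known. The gene lists and the comparison itself were chosen with earlier results of these data known. List genes without a row of their own in the table were not analysed here, and of those measured, dim ones were left out.

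The alternatives were the 4 day 7 arrays alone, other dim filters, the mean of a gene's probe sets, median centring, quantile normalization, cyclic loess, an intensity trend, the replicate block, the 3'/5' index as a covariate, and leaving out single arrays or both arrays with a high index. On simulated data for the day 7 comparison (14545 genes), 34%, 74% and 100% of 50 genes raised by 0.5, 1 and 2 log2 units were called, and 86% of 50 lowered by 1, with 7 unchanged genes called. For the change from day 0 these shares were 6%, 52%, 94% and 58%, with 4 unchanged genes called. Only these genes were changed, far fewer than the 994 called in the data, so the shares need not carry over to the data. Promoter sequences are from RefSeq (GRCm38.p6).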

Additional observations from a re-analysis of the deposited data

Results flagged for a closer look

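The strain difference at day 7 differed from that at day 0 in 598 genes, from that at day 3 in 331 and from that at day 14 in 224 (limma, adjusted p below 0.05). The values below are differences between 2 strain differences, in log2 units, each from that test, and no explanation for them was tested.

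Against day 0 the strain difference was more negative for Clca3a2 (-4.87), Tyrp1 (-3.89), Gria1 (-3.71), Epha5 (-3.02), Sh3gl3 (-2.53), Fgf5 (-2.44), Gadd45a (-2.28), Btc (-2.28), Lrrtm2 (-2.28), Pou3f1 (-2.27), Trpm3 (-2.18), Gpnmb (-2.14), Sox2 (-1.79) and Flrt3 (-1.72). It was more positive for Fam107a (5.65), Ncmap (3.98), Kcnk1 (3.80), Adcy1 (3.36), Cdh1 (3.32), Drp2 (3.29), Fam178b (3.26), Plekha7 (3.08), Sema5a (3.04), Ddn (2.92), Chdh (2.67) and Otop1 (2.22).

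Some genes were called in opposite directions on different days. Gjb1, the myelin connexin, and the chemokine gene Cxcl14 were higher in WldS at day 7 and lower at day 3, with changes of 3.82 and 1.33. Ms4a7, a macrophage gene, went the other way (-1.44). Higher in WldS at day 7 and lower at day 14 were Ddn (3.92), the lipid genes Elovl6 (2.31) and Ugt8a (2.26), and the cholesterol genes Idi1 (2.58), Cyp51 (2.01) and Hmgcs1 (1.63). Lower at day 7 and higher at day 14 were the Wnt antagonist Wif1 (-2.75) and the proliferation genes Rrm2 (-1.64), Cenpf (-1.22) and Prc1 (-1.13).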

How the results depend on the processing

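The 994 calls between the strains at day 7 became 722 with the 4 arrays of that day alone, 1311 without both arrays of high 3'/5' index and 1470 (849 higher) with the index as a covariate. The index covariate also gave 506 genes for the change from day 0 and 583 for that from day 3. Against day 0 it gave 3335 for WldS day 7 and 5819 for C57BL/6 day 7. Leaving out 1 array gave 427 to 1235 calls at day 7, of which 232 to 704 were higher and 195 to 531 lower, and 235 to 1647, 140 to 496 and 129 to 327 for the changes from day 0, 3 and 14. The other filters, scalings and probe set rules kept these counts within 1.5 times. Over all settings 52.6% to 58.7% of the calls were higher, and the median of all genes moved by no more than 0.016 from 0. No named gene that was called changed sign, while uncalled ones near 0 could cross it (Parp1, -0.37 to 0.32). Of 154 named and called genes 78 were called under every alternative that tested them. Not all of these were tested under all 27, since dim genes were left out of some. Clca3a2 and Tyrp1 were tested under 26, and Lrrtm2 and Edil3 under 25. Calls of named genes ended most often where 1 array of day 7 was left out.

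The replicate block gave 908 calls at day 7 (509 higher, 399 lower) and ended 11 named calls. The replicate numbers were not taken as pairs, since the deviations of same-numbered pools correlated over 0.1 in 5 of 28 pairs of groups (from -0.581 to 0.193, 0.120 at day 7).

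Signals near the dim filter were taken to bound a difference from below, and only for the probe set read. The filter is a percentile of the probe set means, not a measured detection limit. Pools, not mice, are the unit, and substrain and mutation cannot be told apart.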

Other observations

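Probe sets without a single gene symbol were tested apart. Of 5654, 197 (3.48%) were called between the strains at day 7, 112 higher and 85 lower in WldS, against 1527 of 31526 (4.84%) over all probe sets tested.

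The WldS pools of day 7 differed from each other by 1 log2 unit or more in 66 genes, and the genes with the largest gaps served different functions. Sdc4, a syndecan of the cell surface, read 11.19 and 9.25 in the WldS pools. Dbp, an output gene of the circadian clock, was at 9.08 and 10.90 in WldS and at 8.79 and 10.11 in C57BL/6, so both strains had 1 lower and 1 higher pool. The plasma cell genes Jchain and Ighm were both higher in WldS replicate 2, at 9.09 against 7.23 and at 11.15 against 9.67, as was Mmrn1 (8.98 against 7.17).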
